A study of Mus musculus with 19 samples.

Results

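The miR-200 family of microRNAs (miRNAs) was followed liver by liver in mice given dibenz[a,h]anthracene. Its 5 members, mmu-miR-200a, mmu-miR-200b, mmu-miR-429, mmu-miR-200c and mmu-miR-141, were found by name among the 696 mouse miRNAs that the array files list. The prefix mmu, for mouse, is left out from here on. The array names carry no arm, and each of them is the arm now called -3p. The passenger strands (the other arm of the hairpin, marked with an asterisk) of miR-200a, miR-200b, miR-200c and miR-141 were also on the array. The family was chosen by its levels in single livers, which were already known to be high in a few of them, so those levels are given as a description. A screen for single livers far from their group, given near the end, uses the same levels and supports nothing.

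The animals were male MutaMouse mice, transgenic strain 40.6, aged 10 weeks. They received the compound in olive oil by gavage every day for 28 days, and livers were collected 3 days later. MutaMouse carries a bacterial reporter gene for scoring mutations, and every animal here, control or dosed, is of that strain. The groups were olive oil alone (control, 5 mice), 6.25 mg/kg/day (low dose, 5 mice), 12.5 mg/kg/day (middle dose, 4 mice) and 25 mg/kg/day (high dose, 5 mice), with 1 array for each mouse. Livers are named here by dose group and by the replicate number in the labels, such as high dose 8. The tissue label is part of a liver, so each value averages over hepatocytes, bile duct cells, vessels and blood cells, and more cells of a type cannot be told apart from more RNA per cell.

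The miR-200 miRNAs are known for holding cells in an epithelial state. They bind the messenger RNAs of Zeb1 and Zeb2, repressors that shut down E-cadherin and other epithelial genes, and Zeb1 and Zeb2 in turn repress the miR-200 genes. In liver they are best known from the epithelium of the bile ducts, and hepatocytes hold little of them. Dibenz[a,h]anthracene is a polycyclic aromatic hydrocarbon that activates the aryl hydrocarbon receptor and whose metabolites form adducts with DNA.

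The mature sequences are shown because the members differ so little that their identity as separate measurements depends on a few bases. They are RefSeq's, of build GRCm38.p6, written 5′ to 3′ with the seed, bases 2 to 8, in capitals. The seed is the stretch that pairs with target messenger RNAs.

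miR-200a: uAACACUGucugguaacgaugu
miR-141: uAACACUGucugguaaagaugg
miR-200b: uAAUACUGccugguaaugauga
miR-200c: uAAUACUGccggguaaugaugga
miR-429: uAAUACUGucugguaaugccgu

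The family has 2 seeds. Among 1738 mature mouse miRNAs of RefSeq, AACACUG is held by 2, miR-200a and miR-141, and AAUACUG by 3, miR-200b, miR-200c and miR-429. The seeds differ by the change C4U, written from miR-200a to miR-200b and counted from the 5′ end. Within a seed group the sequences are close. From miR-200a to miR-141 there are 2 differences over 22 positions, C17A and U22G. From miR-200b to miR-200c there are likewise 2, U11G and A22G. Whether an array probe for a member also captured a close relative was not tested, so the values of such relatives are not fully separate measurements.

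The seed groups do not follow the genes. The hairpins of miR-200b, miR-200a and miR-429 lie on the minus strand of chromosome 4 within 1846 bp, at chr4:156053905-156055750 of GRCm38.p6. RefSeq places them inside the span of the long noncoding RNA gene Gm13648, and the nearest protein-coding gene is Ttll10. The hairpins of miR-200c and miR-141 lie within 477 bp on the minus strand of chromosome 6, at chr6:124717914-124718390, between the protein-coding genes Phb2 and Ptpn6. Each cluster therefore holds members of both seeds. The mature miR-200a is encoded at chr4:156054911-156054932 and the mature miR-141 at chr6:124717917-124717938. The Mir200b hairpin, at chr4:156055681-156055750, is shown with both arms in capitals because the array measured both.

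Mir200b hairpin: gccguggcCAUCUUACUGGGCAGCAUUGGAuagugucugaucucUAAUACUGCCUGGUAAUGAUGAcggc

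All 19 arrays were read as background-subtracted signal in scanner units. A level is the log2 signal of a miRNA's brighter probe relative to the 75th percentile of that array, and levels under a floor of -4.79 were raised to it. The 75th percentile itself was between 139 and 491 scanner units, and an array detected 155 to 209 miRNAs. Arrays of 1 group correlated at r of 0.961 to 0.997 over the tested miRNAs, and arrays of different groups at nearly the same r, 0.953 to 0.998. The members were dim in most livers. miR-200a and miR-200b were detected by the scanner software on all 19 arrays, miR-429 on 12, miR-200c on 7 and miR-141 on 4. The 4 passenger strands were detected on 0 arrays and lay at the floor throughout.

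In 4 dosed livers all 5 members stood above the other 15 livers. They were low dose 3, middle dose 6, middle dose 14 and high dose 8. miR-200a and miR-200b, the members detected on every array, were 13.7 and 12.5 times the median of the other high dose livers in high dose 8. The 15 other livers, controls and dosed alike, had miR-429, miR-200c and miR-141 at the floor. The 4 livers also keep nearly the same order for every member, high dose 8 first, then low dose 3, middle dose 6 and middle dose 14, with miR-200c the exception in having middle dose 6 above low dose 3.

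**Figure D1:**
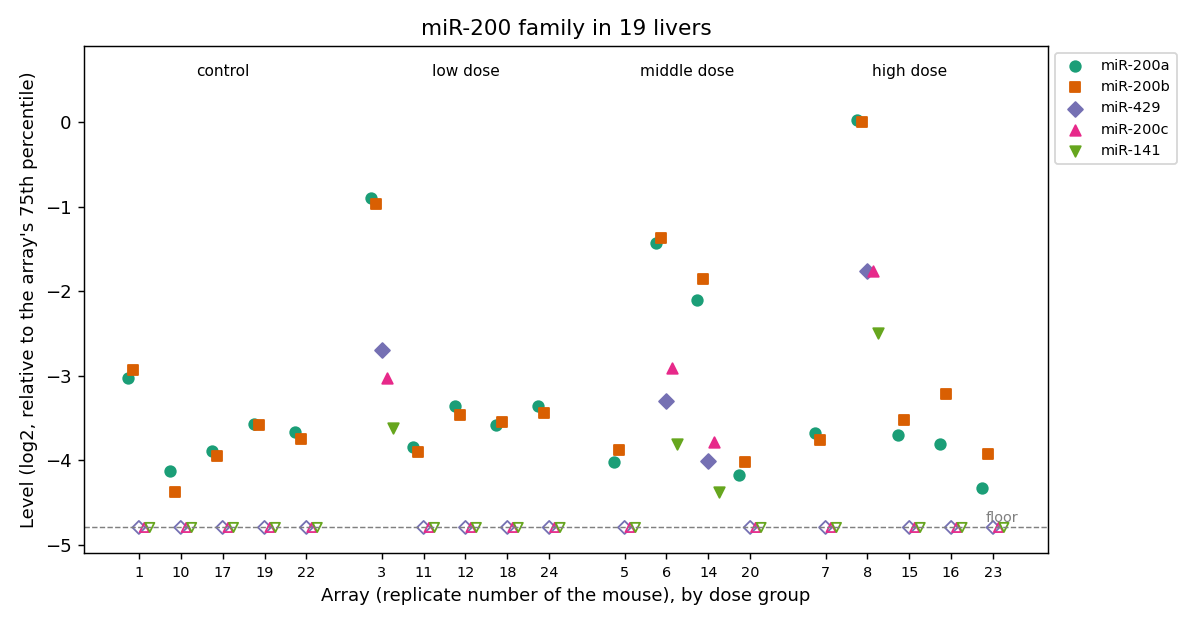
Level of each miR-200 member (log2, relative to the array's 75th percentile) on each of the 19 arrays, by dose group, with filled points above the floor of -4.79 (dashed) and open points at it. Low dose 3, middle dose 6, middle dose 14 and high dose 8 hold all 5 members above every other liver.

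miR-200a, which shares its seed with miR-141, had levels of -3.02, -4.13, -3.89, -3.57 and -3.67 in control livers 1, 10, 17, 19 and 22. At the low dose it had -0.90 in liver 3 and -3.84, -3.35, -3.58 and -3.36 in livers 11, 12, 18 and 24. At the middle dose it had -1.43 and -2.10 in livers 6 and 14, and -4.02 and -4.18 in livers 5 and 20. At the high dose it had 0.02 in liver 8 and -3.67, -3.70, -3.81 and -4.32 in livers 7, 15, 16 and 23. Outside the 4 livers the dosed values lay below the highest control, that of control 1, and the groups overlap apart from those 4. In scanner units miR-200a gave 230 in high dose 8 (SD over spots 12.7, n = 10 spots) against 9.95 to 17.1 in the other high dose livers. It gave 117 in low dose 3, against 21.7 to 32.8 in the other low dose livers. It gave 65.0 and 47.8 in middle dose 6 and 14, against 10.8 and 16.8 in the other pair. The controls ran between 19.7 and 38.6, so the remaining high dose livers were all dimmer than every control in raw signal, though not after scaling.

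miR-200b, encoded less than a kilobase away from miR-200a, followed it closely. Its levels were -2.93, -4.38, -3.95, -3.58 and -3.74 in control livers 1, 10, 17, 19 and 22. They were -0.97 in low dose 3 and between -3.90 and -3.44 in the other low dose livers. They were -1.37 and -1.85 in middle dose 6 and 14, and -3.87 and -4.02 in middle dose 5 and 20. At the high dose they were 0.00023 in liver 8, at about the array's 75th percentile, and -3.76, -3.53, -3.22 and -3.92 in livers 7, 15, 16 and 23. The highest level outside the 4 livers was again that of control 1. Over the 15 other livers, where neither member touches the floor, miR-200a and miR-200b correlated at Pearson's r of 0.812 and Spearman's rho of 0.818. That is a description over 15 arrays that share their scaling. No correlation between members is given over all 19, since the 4 livers lie above the other 15 for every member. For miR-429, miR-200c and miR-141 those 15 are tied at the floor.

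miR-429, the last member of the chromosome 4 cluster, had levels of -2.70 in low dose 3, -3.30 in middle dose 6, -4.00 in middle dose 14 and -1.76 in high dose 8. Its signal was 66.9 scanner units in high dose 8, against 2.09 to 4.72 in the other high dose livers. It was 33.8 in low dose 3, against 5.66 to 9.0 in the other low dose livers. It was 17.9 and 12.8 in middle dose 6 and 14, against 3.35 and 4.84 in the other pair. The controls gave 4.26 to 10.4 scanner units. The ranges show that miR-429 was detectable but under the floor in many of the other livers, 8 of the 15.

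The chromosome 6 pair was high in the same 4 livers. miR-200c had levels of -3.03 in low dose 3, -2.91 in middle dose 6, -3.79 in middle dose 14 and -1.76 in high dose 8. Its signals there were 26.8, 23.4, 14.9 and 66.9 scanner units, against 1.90 to 5.44 in the other low dose livers, 2.38 and 3.06 in the other middle dose livers and 1.08 to 4.31 in the other high dose livers. Controls gave 1.42 to 7.85 scanner units. miR-141 was at -3.61, -3.81, -4.37 and -2.49 in low dose 3, middle dose 6, middle dose 14 and high dose 8. Its signals there were 17.9, 12.5, 9.95 and 40.3 scanner units, against at most 5.40 in the other dosed livers and 1.38 to 5.92 in controls. Those 4 arrays are also the only ones on which miR-141 was detected, and miR-200c was detected on 3 more. In middle dose 14 the scanner software marked 1 of 10 miR-141 spots as well above background. It marked 1 of 10 in control 22 too, where miR-141 was not called detected. With at least 4 arrays needed for testing, miR-141 and miR-200c entered the tests only through the livers where they were high.

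Set against the median of the other livers of its own group, high dose 8 was higher by 3.78 for miR-200a, 3.64 for miR-200b, 3.03 for both miR-429 and miR-200c and 2.30 for miR-141, on the log2 scale. Low dose 3 was higher by 2.57, 2.54, 2.10, 1.76 and 1.18 for miR-200a, miR-200b, miR-429, miR-200c and miR-141. Middle dose 6 was higher by 2.58, 2.50, 1.49, 1.88 and 0.99 in that order of members, and middle dose 14 by 1.91, 2.02, 0.79, 1.01 and 0.42. For miR-429, miR-200c and miR-141 these are distances from the floor. The floor cuts them short, so they are not compared between members. Outside the 4 livers the largest such difference above 0 was that of control 1, at 0.76 for miR-200a and 0.91 for miR-200b. The spread over the spots of a probe, as a coefficient of variation, was 3.2 to 20.1% for the members in the 4 livers.

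Each member has a further probe on the array, which the levels above do not use. For miR-200a, miR-200b, miR-429 and miR-200c the same 4 livers had the highest signal of that probe too. For miR-200a the further probe put low dose 3, middle dose 6, middle dose 14 and high dose 8 at 2.06, 1.58, 1.22 and 3.17 above the median of their groups' other livers, and for miR-429 at 1.96, 1.36, 0.93 and 2.95 (log2). The further probe of miR-141 lay at the floor on all arrays, where control 1, at 1.02 scanner units, ranked above middle dose 14. The authors' deposited log2 table, which was made from the same arrays, also placed these 4 livers highest for 5 of 5 members. With normexp background correction of the scanner's median signals, all 4 livers were above the other 15 for 1 of 5 members.

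**Figure D2:**
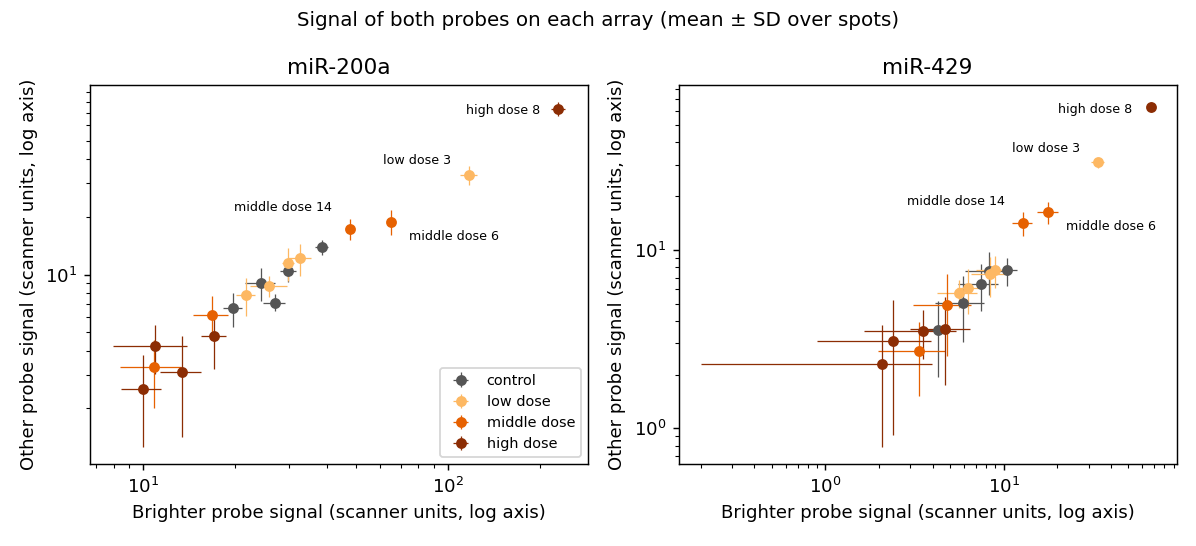
Signal of the brighter and the further probe (scanner units, log axes) of miR-200a and miR-429 on each array, coloured by dose group, with bars for the SD over spots of a probe. High dose 8, low dose 3, middle dose 6 and middle dose 14 are highest on both probes.

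The members varied between livers of 1 dose group more than most miRNAs did. Among the 208 tested miRNAs (those detected on at least 4 arrays), the SD left after dose group and slide was 1.10 for both miR-200a and miR-200b, which ranked 3 and 4. It was 0.821 for miR-200c, 0.810 for miR-429 and 0.570 for miR-141, at ranks 6, 7 and 10. Without the 4 livers miR-200c and miR-141 would not be among the 208. The median over the 208 was 0.145 on the log2 scale. miR-1 and miR-133b, miRNAs of striated muscle, held ranks 1 and 2 with SDs of 2.51 and 1.72. All of these spreads describe the values by which the family was picked.

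**Figure D3:**
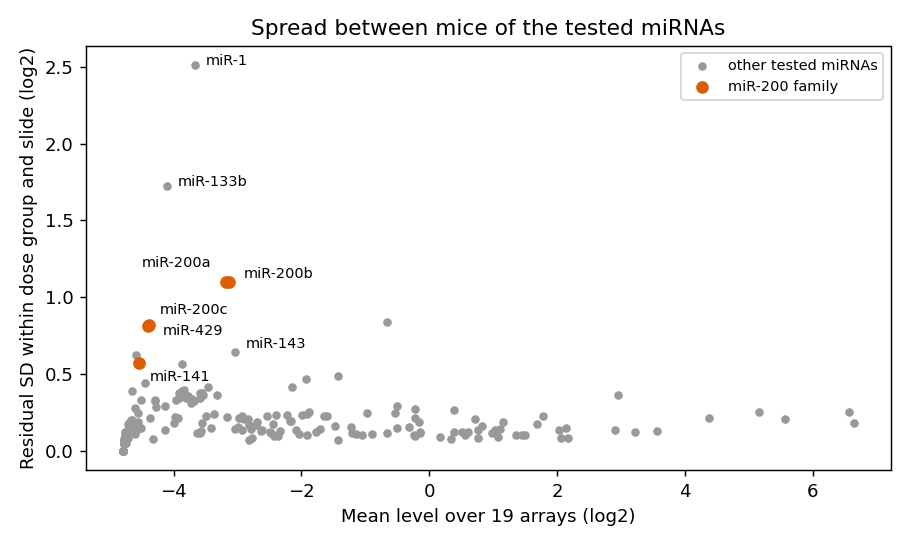
SD within dose group and slide against the mean level over 19 arrays (both log2), for the 208 tested miRNAs. The 5 members (orange) have SDs of 0.570 to 1.10, against a median of 0.145, and miR-1 and miR-133b lie above them.

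The miRNAs most like the family varied far less. The likeness of a miRNA to the family was the mean of its Pearson correlations with the 5 members over the 19 arrays, and of 180 miRNAs compared none reached 0.9. It serves only to rank miRNAs, since the 4 livers lie above the other 15 for every member. The closest were miR-652 at 0.623, let-7e at 0.600, miR-10b at 0.599, miR-23a at 0.564 and miR-199a-3p at 0.534, against a median of 0.0696. Their levels spanned at most 1.06 over all 19 arrays on the log2 scale, while miR-200a ranged between -4.32 and 0.02. In the 15 other livers their correlations with miR-200a were 0.006, 0.116, -0.268, 0.230 and 0.624. Of these, that of miR-199a-3p is the highest. miR-23a lay at 0.84, 0.94, 0.81 and 0.78 in low dose 3, middle dose 6, middle dose 14 and high dose 8, against 0.15 to 0.75 in the other livers. It was the single miRNA of those 5 for which all 4 livers were above the rest, which include the controls. Against the medians of their own groups the 4 livers differed by 0.18, 0.16, 0.03 and 0.12, and control 1 by 0.21. The low dose as a whole differed from control by 0.27 for miR-23a (limma adjusted p = 0.0684).

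**Figure D4:**
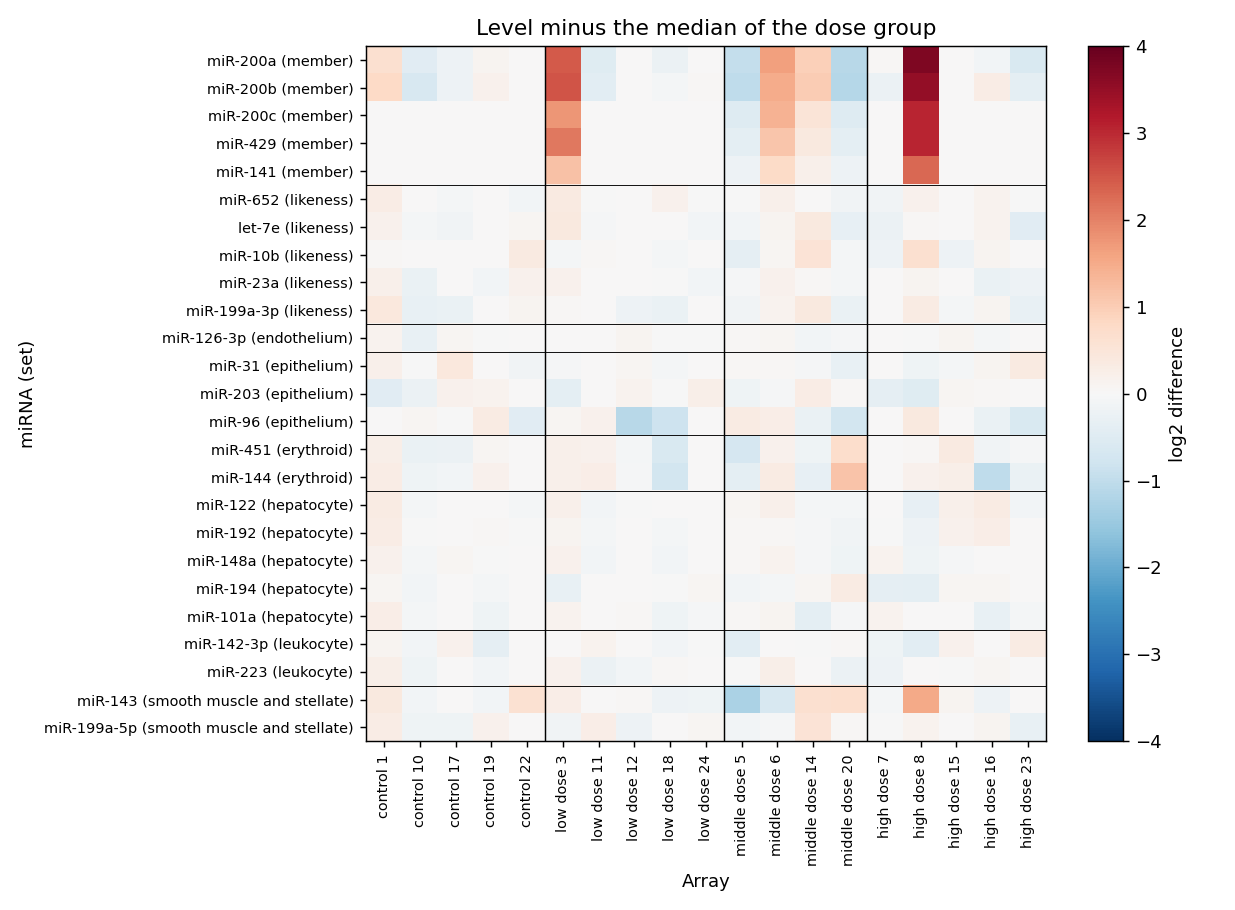
Log2 level of each miRNA minus the median of its dose group on each of the 19 arrays (red higher, blue lower), for the family, the 5 miRNAs most like it and the cell markers detected on all arrays. miR-200a reaches 3.73 in high dose 8. In the same 4 livers the stellate marker miR-199a-3p differs by 0.04 to 0.38 and the leukocyte marker miR-223 by 0.01 to 0.24. miR-143, of smooth muscle and stellate cells, differs more, by 0.25 in low dose 3, -0.65 in middle dose 6, 0.65 in middle dose 14 and 1.52 in high dose 8.

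Markers of other cells were read beside the family, and their part in its values was not tested. Of 7 other miRNAs of epithelium, miR-31, miR-203 and miR-96 were detected on all arrays, miR-205, miR-182 and miR-375 on 0, and miR-183 on 1. Their summed level, as a percent of the array's 75th percentile, was 21.7 to 28.3 in control, 23.8 to 31.0 in low dose, 19.9 to 27.0 in middle dose and 22.2 to 24.2 in high dose livers. The sum was highest in high dose 8 within the high dose and in middle dose 6 within the middle dose, but within the ranges of the other groups. miR-96 stood at -3.31, -3.23, -3.75 and -3.26 in low dose 3, middle dose 6, middle dose 14 and high dose 8, against -4.79 to -3.18 in the other livers. In the same order of livers miR-203 was at -3.82, -3.74, -3.41 and -4.12, against -4.01 to -3.18, so high dose 8 had the lowest level of all 19. miR-31 was at -3.46, -3.59, -3.67 and -3.92, against -3.93 to -3.08, with high dose 8 near the lowest.

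The 4 miRNAs of pancreas (miR-216a, miR-216b, miR-217 and miR-375) were detected on 0 arrays, with sums of at most 0.180% of the 75th percentile. The muscle list had 4 of its 5 names on the array and 0 members detected on all arrays. Its sum reached 331% in control 22, 458% in low dose 11 and 246% in middle dose 20, none of which is among the 4 livers, and was 23.8% in high dose 8, the highest of the high dose. miR-1 was detected on 6 arrays. Besides control 22, low dose 11 and middle dose 20 they were low dose 3, middle dose 14 and high dose 8, with levels of -4.23, -4.11 and -2.67. miR-143, of smooth muscle and stellate cells, was at -2.87, -2.96, -1.65 and -1.92 in low dose 3, middle dose 6, middle dose 14 and high dose 8, against -3.66 to -1.64 in the other livers. miR-199a-3p, of the same list and among the miRNAs most like the family, was at -1.46, -1.29, -1.06 and -1.47, against -2.07 to -1.34, with middle dose 6 and middle dose 14 above all of the other 15. Of that list 3 of 5 were detected on all arrays, and its sum was 40.9 to 64.4% in control, 51.1 to 60.3% in low dose, 52.6 to 96.4% in middle dose and 41.0 to 72.0% in high dose livers. Its highest sums at the middle and high doses were those of middle dose 14 and high dose 8.

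miR-122, the main miRNA of hepatocytes, was at 6.83, 6.90, 6.63 and 6.35 in low dose 3, middle dose 6, middle dose 14 and high dose 8, against 6.41 to 6.98 in the other livers, so this marker of the labelled tissue was bright on every array. High dose 8 had the lowest level of all 19 for miR-122, miR-192, miR-194 and miR-148a, 4 of the 5 hepatocyte markers, which were detected on all arrays. The summed hepatocyte level was 9900 to 12987% in control, 10564 to 13026% in low dose, 11070 to 13408% in middle dose and 9377 to 14264% in high dose livers. The endothelial miR-126-3p was at 1.61, 1.57, 1.40 and 1.37 in the 4 livers, against 1.04 to 1.69. The leukocyte miR-142-3p was at -0.14, -0.08, -0.09 and -0.64, against -0.65 to 0.10. The leukocyte miR-223 was at -1.45, -1.27, -1.48 and -1.58, against -2.19 to -1.52, so low dose 3, middle dose 6 and middle dose 14 lay above all of the other 15. The other 15 include the controls, and miR-223 was called higher at the low dose as a whole, by 0.37 (limma adjusted p = 0.0382). Against the medians of their own groups low dose 3, middle dose 6 and middle dose 14 differed by 0.18, 0.24 and 0.03 for miR-223, and control 1 by 0.22. Of the leukocyte list 2 of 5 were detected on all arrays and miR-150 and miR-155 on 0, and its sum was 89.7 to 123% in control, 123 to 134% in low dose, 109 to 142% in middle dose and 102 to 146% in high dose livers. The erythroid miR-451 was at 3.32, 3.13, 2.80 and 2.76, against 2.30 to 3.67. miR-126-3p, miR-142-3p and miR-451 lie within the range of the other livers, and miR-223 does not.

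Array quality also stands beside the pattern. The 75th percentiles of low dose 3, middle dose 6, middle dose 14 and high dose 8 were 219, 176, 206 and 226 scanner units, inside the range of all arrays. They detected 174, 168, 157 and 184 miRNAs. The labelling spike was at 12.00, 11.68, 12.03 and 11.29 (log2 signal), and the hybridization spike at 14.34, 14.18, 15.01 and 14.01, so high dose 8 had the lowest value of both spikes among the 19 arrays. Of the 4 livers, 3 were on slide 1, middle dose 14 was on slide 2 and none was on slide 3. The part of slide or spikes in the family's levels was not tested beyond the values within slides given below.

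The design asks whether the family's level depends on the dose, and each dose was compared with control over livers. None of the 5 members passed at any dose. By limma with the slide as a block and Benjamini-Hochberg adjustment over 208 miRNAs, 0 of 5 members were called at the low dose, where 4.33% of all tested miRNAs were. At the middle dose it was 0 of 5, with 5.77% of all called, and at the high dose 0 of 5, with 2.4% of all called. In the F test over all 4 groups it was 0 of 5, with 0.962% of all called and an adjusted p of 0.988 for every member. At an unadjusted p under 0.05 the count was also 0 of 5 in each of these tests.

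miR-200a averaged -3.65 ± 0.42 in control livers (SD, n = 5), -3.01 ± 1.19 in low dose livers (SD, n = 5), -2.93 ± 1.37 in middle dose livers (SD, n = 4) and -3.10 ± 1.76 in high dose livers (SD, n = 5). The low dose differed from control by 0.60 in the fit (SE 0.69, 95% interval -0.89 to 2.09, limma adjusted p = 0.882). The middle dose differed by 0.22 (SE 0.75, -1.40 to 1.85, limma adjusted p = 1) and the high dose by 0.19 (SE 0.72, -1.35 to 1.73, limma adjusted p = 1). The SDs of the dosed groups exceed the differences, and all 3 intervals include both 0 and 1, a doubling. For miR-200b the means were -3.72 ± 0.53 in control, -3.06 ± 1.19 in low dose, -2.78 ± 1.36 in middle dose and -2.88 ± 1.63 in high dose livers (SD, same n). Its fitted differences were 0.61, 0.48 and 0.49 from low to high dose, with limma adjusted p of 0.882, 0.801 and 0.746.

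miR-429, miR-200c and miR-141 were at the floor in all controls, so their fitted differences depend on where the floor is set. For the low dose they were 0.41, 0.34 and 0.24, for the middle dose 0.26, 0.42 and 0.15, and for the high dose 0.39, 0.39 and 0.33, with limma adjusted p between 0.667 and 0.968. The median over the 5 members was 0.41, 0.26 and 0.39 from low to high dose, beside medians of 0.07, 0.11 and 0.06 over all 208 miRNAs. For every member 1 of 5 low dose, 2 of 4 middle dose and 1 of 5 high dose livers lay above all controls, which are again the 4 livers.

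**Figure D5:**
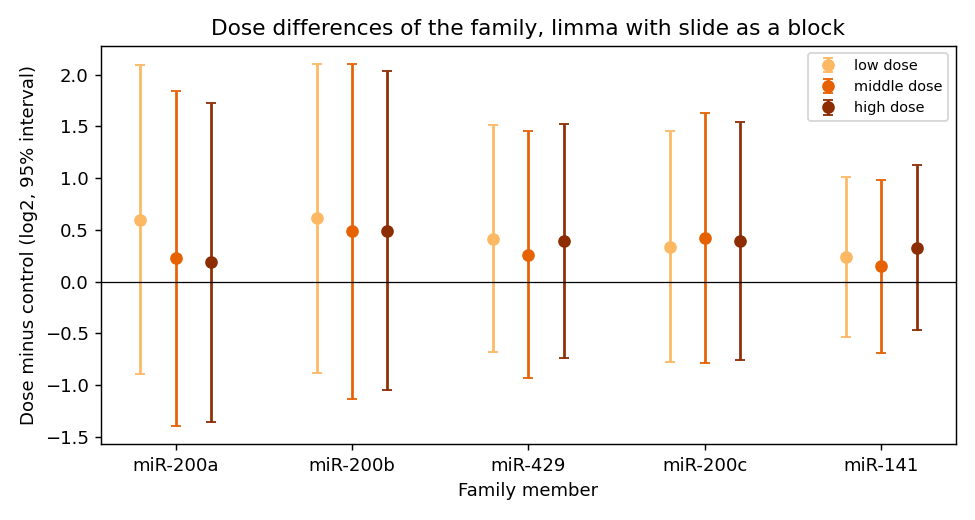
Fitted difference of each dose from control (log2, limma with slide as a block) for the 5 members, with 95% intervals as bars. All 15 differences are above 0, from 0.15 to 0.61, and all 15 intervals include 0.

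The sign of the middle and high dose differences depended on single livers. That of the low dose differences of miR-200a and miR-200b did not. Without low dose 3 the low dose differences were 0.31 for miR-200a, 0.29 for miR-200b, 0.14 for miR-429 and miR-200c and 0.11 for miR-141. Without high dose 8 the differences at the high dose were -0.38 for miR-200a, -0.04 for miR-200b, -0.07 for miR-429, -0.08 for miR-200c and -0.04 for miR-141. In these fits the controls and the remaining livers of the dose were all at the floor for miR-429, miR-200c and miR-141. The differences of those members therefore come from the slide block alone and compare no measured levels. Without middle dose 14 those at the middle dose were -0.40 for miR-200a, -0.16 for miR-200b, -0.04 for miR-429 and -0.03 for miR-141, while that of miR-200c stayed above 0. Leaving out middle dose 6 put miR-200a at -0.0066 at the middle dose. Leaving out control 1, the control with the most miR-200a, put miR-200a at -0.05 for the middle and -0.07 for the high dose, and miR-429 and miR-141 both at -0.10 for the middle dose. With all 4 livers left out, an alternative chosen after seeing the data, miR-200a differed from control by 0.21, -0.58 and -0.24 from low to high dose, and miR-200b by 0.21, -0.34 and 0.11. miR-429, miR-200c and miR-141 could not be fitted there, since every remaining value was the floor. None of these differences passed the threshold.

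The slides gave different values too. On slide 1, which held 1 control, the mean of the 1 low dose, 2 middle dose or 2 high dose livers was above that control for all 5 members, by 1.18 to 2.12 for the low, 0.30 to 0.94 for the middle and 1.06 to 1.52 for the high dose (log2). Singly, low dose 3, middle dose 6 and high dose 8 were above control 1 there, while middle dose 5 and high dose 7 had less miR-200a and miR-200b than control 1. Slide 2 also had 1 control, with 2 low dose, 1 middle dose and 2 high dose livers. The differences there were 0 to 0.69 for the low, 0.42 to 2.53 for the middle and 0 to 1.01 for the high dose. Slide 3 had 3 controls, 2 low dose livers, 1 middle dose liver, 1 high dose liver and none of the 4 livers. Its differences were 0 to 0.27, -0.47 to 0 and -0.61 to 0 in that order of doses. Each 0 is a tie at the floor, of miR-429, miR-200c and miR-141. So the middle and high dose means lay above control on slide 1. On slide 3 the single middle dose and high dose livers lay below the control mean for miR-200a and miR-200b.

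Other miRNAs reported to act on Zeb1, Zeb2, Snai1 or Snai2, or to mark epithelium, were read as a list of 13, of which 9 were tested. At each dose 1 of the 9 was called higher and 0 lower, where 4.33, 5.77 and 2.4% of all tested miRNAs were called from low to high dose, all of them higher. The called one was miR-34a, a p53 target that represses Snai1, with 1.52, 3.11 and 3.49 from low to high dose (log2, limma adjusted p = 0.0165, 3.59e-05 and 4.88e-06). The median of the 9 was 0.01, -0.11 and -0.16 at the low, middle and high dose, against 0.07, 0.11 and 0.06 over all 208. miR-96 had differences of 0.60, 0.58 and 0.47, which did not pass (limma adjusted p = 0.280, 0.191 and 0.275). The epithelial markers miR-31 and miR-203 went the other way at the middle and high doses. From low to high dose miR-31 had -0.04, -0.31 and -0.33, and miR-203 had 0.01, -0.11 and -0.26. Neither passed, with limma adjusted p at the high dose of 0.103 for miR-31 and 0.101 for miR-203. The 5 miR-30 members of the list, a family that acts on Snai1, had high dose differences of -0.28 for miR-30a, -0.16 for miR-30b, 0.00022 for miR-30c, 0.16 for miR-30d and -0.38 for miR-30e. None of the 5 passed, with limma adjusted p between 0.0650 and 1.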

How the data were processed

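Each array's scanner file gave 1 background-subtracted signal intensity per spot, unscaled between arrays, from Agilent Feature Extraction 10.7.3.1, per the file headers. The value table that the authors deposited holds log2 values of 692 miRNAs; its method and scaling are not given in the sources used here, and its column medians lie between 5.04 and 5.06. It served as an alternative.

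From the 13920 non-control spots of an array, outlier spots were dropped and the spots of each of 1937 probes averaged. Signals were divided by the array's 75th percentile taken over 220 probes seen on every array and floored at -4.79 (log2). A miRNA was its brightest probe. The 208 miRNAs detected on at least 4 arrays were fitted with limma 3.58.1 in R 4.3.3 on all 4 groups, with slide as a fixed block and Benjamini-Hochberg adjustment at 0.05. The procedure was tested on simulated data with normally distributed noise. Those data had no floor and no single outlying livers, so that test does not cover values like those of the members. The normexp alternative used median signals, as the files used here hold no mean signal. Other alternatives concerned scaling, filter, floor, probe, block and left-out arrays. The number of arrays limits the precision, and p-values cover the spread between mice.

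The members, marker lists and tests were chosen with earlier results of these data known. The text names the 5 members, their passenger strands, the 5 tested miRNAs most correlated with them and marker miRNAs; marker miRNAs not detected on all arrays, and the miRNAs miR-34a, miR-30a to miR-30e, miR-1 and miR-133b, were named after their values were seen.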

Additional observations from a re-analysis of the deposited data

Results flagged for a closer look

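In a screen for single livers far from their group, by the gap to the nearest other liver over the whole range of the group, low dose 3 and high dose 8 were marked for all 5 members. The members were chosen by these same levels, so the screen describes them again and supports nothing. Levels in low dose 3 were -0.90 for miR-200a, -0.97 for miR-200b, -3.03 for miR-200c, -2.70 for miR-429 and -3.61 for miR-141. In high dose 8 they were 0.025, 0.00023, -1.76, -1.76 and -2.49 in the same order of members. The gap took 0.82 to 1 of the range in these 10 of 20 sets of a member and a group, against a critical value of 0.71 for 5 livers. For miR-200c, miR-429 and miR-141 it was 1 by construction, because the other livers were tied at the floor. Chance alone flags about 1 in 20 such groups, and the 10 are not independent, since the members were picked for these livers and move together. Control livers of miR-200c, miR-429 and miR-141 were all at the floor and could not be tested in this way. Middle dose 6 and 14 were high together, so neither was far from its nearest neighbour.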

How the results depend on the processing

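None of the 5 members was called at any dose under any alternative, and the lowest limma adjusted p of any was 0.110 (normexp background). Of 174 differences recomputed without leaving out single arrays, 19 turned negative. Other settings raised them: all 15 were 0.42 to 0.71 with normexp background and 0.24 to 0.94 with no slide block, and the highest was 1.03 with the lowest positive signal as floor. With the 75th percentile over all probes, miR-200a was -0.27 and -0.077 for the middle and high doses, and miR-200b -0.0041 and miR-141 -0.0017 at the middle dose. Quantile normalization gave miR-200a -0.19 at both these doses. With no scaling miR-200a was -0.35 and -0.52, and miR-200b -0.090 and -0.21, at the middle and high doses. A floor 4 times higher put miR-141, miR-200c and miR-429 at -0.012, -0.042 and -0.048 at the middle dose. With the lowest positive signal as floor, miR-141 was -0.089 and -0.53 at the middle and high doses, and in the authors' deposited table -0.0095 at the middle dose. Without low dose 3, middle dose 6 and 14 and high dose 8 together, added after seeing the data, miR-200a was -0.58 and -0.24 at the middle and high doses and miR-200b -0.34 at the middle dose. The cause was not tested.

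Leaving out single arrays gave, at the high dose, -0.38 to 0.56 for miR-200a, -0.037 to 0.92 for miR-200b, -0.068 to 0.70 for miR-429, -0.078 to 0.69 for miR-200c and -0.038 to 0.55 for miR-141. At the middle dose it gave -0.40 to 0.79, -0.16 to 1.03, -0.10 to 0.59, 0.07 to 0.79 and -0.10 to 0.36 in that order of members. Control 1, middle dose 6, middle dose 14 and high dose 8 were the arrays whose loss turned a sign. Low dose differences stayed above 0.

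The 4 livers were above all others for 5 of 5 members, and for 1 with normexp background, 3 with the further probe (floored levels, while its unfloored signals gave 4) and 2 with the floor 4 times higher. With miRNAs detected on all arrays it was 2 of the 2 members left. No paired analysis was possible because the replicate number of each mouse is used in 1 group. Dim signal limits miR-429, miR-200c and miR-141 most.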
